A study of Mus musculus with 12 samples.

Results

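The SR splicing factor genes examined here were Srsf1, Srsf2, Srsf3, Srsf4, Srsf5, Srsf6, Srsf7, Srsf9, Srsf10 and Srsf11, chosen by name as SR protein genes known for unproductive splicing. They were 10 of the 51467 genes in the count table, and all 10 were among the 14033 genes kept by a filter of 3 CPM in no fewer than 3 libraries, where CPM is the read count of a gene scaled to the size of its library. RNA came from mouse embryonic stem cells (ESCs) grown in serum with LIF and the 2 inhibitors PD0325901 and CHIR99021. Wild-type cells were the V6.5 line, and Dgcr8 KO cells were an existing line that lacks DGCR8, the partner of Drosha in microRNA processing. Cells of both genotypes received 500 uM 4-thiouridine (4sU), a uridine analogue, for 30 min, and each RNA sample was then divided. Captured 4sU RNA measured nascent RNA, and rRNA-depleted RNA measured total RNA, with 3 libraries for each genotype and library type.

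Each genotype was a single line, so line and genotype cannot be told apart, and nothing in the labels says whether libraries numbered 1 to 3 came from separate cultures. P-values therefore measure the spread between these libraries, which may be technical. A second label of the Dgcr8 KO libraries gives another gene name, so Dgcr8 itself was examined first. Its total RNA was 101, 111 and 92.5 CPM in wild-type and 33.6, 34.1 and 32 CPM in the libraries labelled Dgcr8 KO, a log2 change of -1.60 (SE 0.0848, adjusted p = 6.63e-17 in limma). Libraries held 4593914 to 9295245 counts. All 8 ESC markers were tested, and their summed level was 4253 to 4521 CPM in wild-type total and 4357 to 4492 CPM in Dgcr8 KO total libraries. In 4sU libraries the sums were 4848 to 4882 and 5627 to 6286 CPM. No feeder fibroblast marker passed the expression filter. Their summed level over 8 genes was 0.563 to 3.74 CPM across all libraries, and Postn and Dcn had no count in any library.

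SR proteins bind exonic enhancers through RNA recognition motifs and recruit the splicing machinery through a domain rich in arginine and serine. SRPK and CLK kinases phosphorylate this domain, and transportin SR (Tnpo3) carries the proteins into the nucleus. Many SR genes limit their own output: the protein promotes a splice form with an early stop codon, carried by a so-called poison exon or a spliced 3′ UTR, and nonsense-mediated decay (NMD) removes that form. The ratio of total to 4sU signal is used here as relative stability. For these genes it covers whatever productive and unproductive forms share the counted exons.

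The gene annotation (GENCODE M21, same mouse build as the counts) lists unproductive forms for most of the 10 genes. It holds 15 NMD transcripts in 9 members, all but Srsf10, and retained-intron transcripts in 8 members. Of the 11884 tested protein-coding genes, 28.6% have an annotated NMD transcript and 58.7% a retained-intron transcript. The members were chosen for this property, so their shares are a description. For 10 NMD transcripts, in Srsf3, Srsf4, Srsf5, Srsf7, Srsf9 and Srsf11, the early stop codon lies outside the exons in which reads were counted. Their stop codons are shown because they lie in sequence of the unproductive form in which reads were not counted. The 10 transcripts share 7 different stop codon positions, and all 7 are shown. Each line gives 27 bases of the spliced NMD transcript, from the GENCODE transcript sequences, with the stop codon in capitals and its mm10 position.

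Srsf3 (chr17:29039485-29039487, plus strand): ctcaccaccctcTGAatctgcattagc
Srsf4 (chr4:131884388-131884390, plus strand): catgccccagctTAGagtgcttcaccc
Srsf5 (chr12:80947128-80947130, plus strand): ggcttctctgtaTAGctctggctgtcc
Srsf7 (chr17:80205054-80205056, minus strand): agtcagtcgcctTGAttcagaatgtca
Srsf9 (chr5:115328426-115328428, plus strand): acggattcacagTAGaagtactccgga
Srsf11 (chr3:158024209-158024211, minus strand): cctggttcagccTGAactatataccag
Srsf11 (chr3:158023310-158023312, minus strand): gcttttgaaagtTGAgagcacacccct

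The stop codon was TGA in Srsf3, Srsf7 and at both Srsf11 positions, and TAG in Srsf4, Srsf5 and Srsf9. Of all annotated exon bases of a member, the percentage outside the counted exons had a median of 34%, against 18.9% over tested protein-coding genes. Srsf3 (67.5%), Srsf11 (61.8%) and Srsf5 (58.5%) had the highest percentages, and Srsf1 (2.66%) and Srsf10 (16.6%) the lowest. For Srsf3, 5333 of 7899 annotated exon bases were not counted. The values below count reads in the remaining exons, including those of any unproductive form that shares them.

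**Figure D1:**
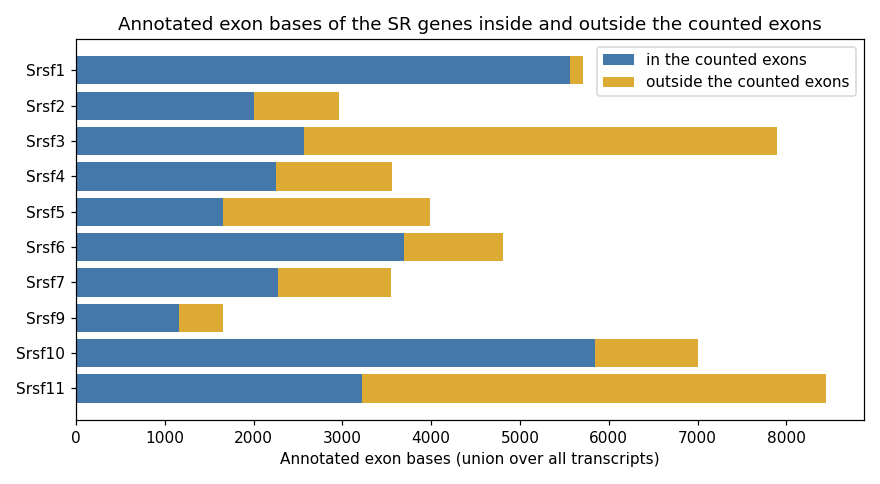
Annotated exon bases of each SR gene (x axis, bases in the union of all transcripts), split into those in the exons in which reads were counted (blue) and those outside them (yellow). Srsf3 has 5333 bases and Srsf11 5222 bases outside the counted exons, and Srsf1 has 152.

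In wild-type ESCs most SR genes were among the most abundant genes measured. By CPM in total RNA, 7 of the 10 lay at or above percentile 94.6 of all tested genes (Srsf1, Srsf2, Srsf3, Srsf5, Srsf6, Srsf7 and Srsf11), and Srsf10 at 87.4, Srsf9 at 77.3 and Srsf4 at 74.2. Per kilobase of counted exon, Srsf1 had the highest level in total RNA, at 227 ± 4.05 CPM per kb (SD, n = 3). It was followed by Srsf2 at 213 ± 9.92 and Srsf7 at 197 ± 10.6 CPM per kb (SD, n = 3). Neighbours among these 3 and Srsf5 (172 ± 16 CPM per kb) overlapped between libraries, and so did Srsf3 (120 ± 4.85) and Srsf6 (115 ± 1.38 CPM per kb). Srsf11 (85 ± 2.53), Srsf9 (73.6 ± 1.27), Srsf4 (32.7 ± 4.76) and Srsf10 (25.2 ± 0.616 CPM per kb, all SD, n = 3) were each apart from the next. With the longest coding transcript as the length, Srsf10 moved to 39.1 CPM per kb, above Srsf4.

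The order in nascent RNA was different. Srsf2, whose product is a nuclear speckle protein, led at 531 ± 35.2 CPM per kb (SD, n = 3), apart from Srsf7 at 253 ± 17.2. Srsf7, Srsf5, Srsf1 and Srsf6 formed a run of overlapping neighbours from 253 down to 198 CPM per kb. Srsf9 was lowest at 32.6 ± 1.35 CPM per kb (SD, n = 3). In Dgcr8 KO, Srsf1, Srsf2 and Srsf7 again led total RNA at 180, 166 and 164 CPM per kb, and Srsf2 led nascent RNA at 433 ± 48.4 CPM per kb (SD, n = 3).

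Wild-type relative stability, as the log2 ratio of total to 4sU RNA, spread the members widely. Across all tested genes its median was 0.08. In 8 of the 10 members it lay below the middle of all genes, and the median percentile of the members was 39.1. Srsf2 was lowest, with log2 ratios of -1.41, -1.40 and -1.14 in samples 1 to 3 and a fitted ratio of -1.31 (SE 0.0613), at percentile 20.6. Srsf10 (-0.80, percentile 28.6) and Srsf6 (-0.78, percentile 29.0) came next. Srsf5 (-0.48), Srsf7 (-0.36), Srsf4 (-0.27), Srsf3 (-0.21) and Srsf1 (-0.04) followed, between percentiles 35.1 and 46.4. Srsf11 was at 0.70, percentile 69.2. Srsf9 was highest, with log2 ratios of 1.09, 1.18 and 1.25 in the 3 samples and a fitted ratio of 1.17 (SE 0.076), at percentile 83.2.

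The members thus ran from Srsf2, with less than the typical total signal for its nascent signal, to Srsf9 at the other end. In Dgcr8 KO the same 2 genes stood at the ends, Srsf2 at -1.38 (SE 0.0641, percentile 21.5) and Srsf9 at 0.67 (SE 0.0813, percentile 70.9). The ratio rests on scaling all 12 libraries together, so its zero point is relative, and it was not corrected for the uridine content of a transcript. It ranks genes and is not a half-life. The percentiles also depend on which genes are tested: the median of the members was 27.8 when all 12 libraries had to reach 3 CPM and 57.2 with no filter beyond 1 count.

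**Figure D2:**
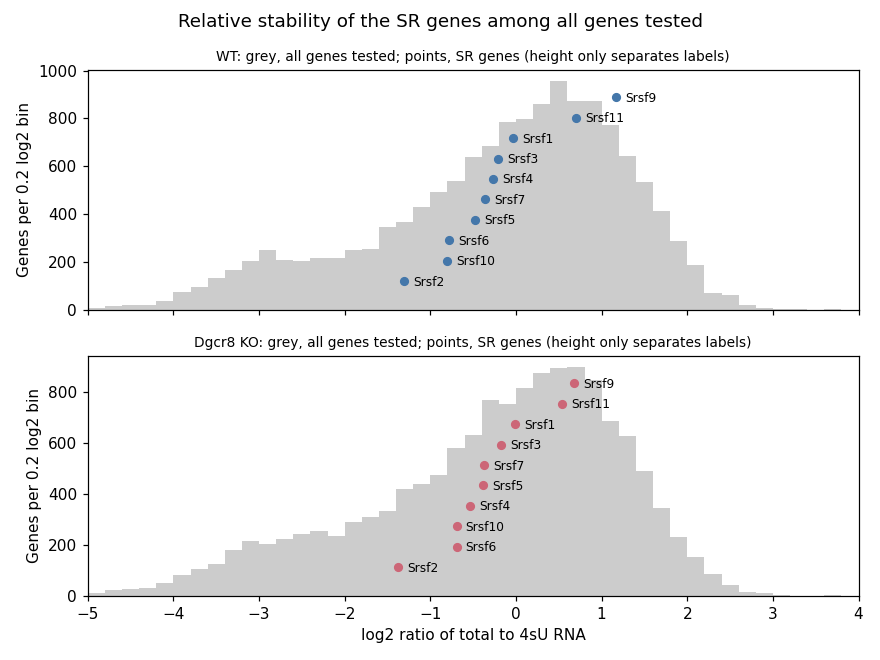
Log2 ratio of total to 4sU RNA (x axis) for all tested genes (grey, genes per bin) and for the SR genes (points) in wild-type (top) and Dgcr8 KO (bottom). In wild-type, Srsf2 is at -1.31 and Srsf9 at 1.17; in Dgcr8 KO, Srsf9 is at 0.67.

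To ask how the SR genes differed between the wild-type and Dgcr8 KO lines, total RNA was compared. The data show that 9 genes fell, and the members' summed level went from 3708, 3793 and 3704 CPM in wild-type to 2974, 3037 and 3029 CPM in Dgcr8 KO. The falls were small, from 12.8% for Srsf5 to 37.9% for Srsf11, and Srsf6 did not pass the test. With limma, 9 of 10 members were lower at an adjusted p under 0.05 and 0 higher, against 36.7% of all tested genes lower and 27.2% higher. Most members were abundant, and the shares of all genes were not matched for abundance. Whether read depth contributes to the gap was not tested. By size, the members' changes lay at percentiles 15.5 (Srsf11) to 55.9 (Srsf6) of those of all tested genes. At an unadjusted p under 0.05 limma again had 9 lower and 0 higher. The quasi-likelihood test of edgeR had 9 lower, DESeq2 had 8, and neither had a member higher. Shares of all tested genes past a test were computed only for limma at an adjusted p. The counts at an unadjusted p or with another tool, here and below, have no matching share. All KO total libraries lay below all wild-type total libraries in 9 members and in 39.6% of all tested genes. The median log2 change was -0.36 over the members and -0.09 over all tested genes. No member reached a log2 change of 1, which 17.2% of tested genes passed in either direction. Each member had at least 393 counts in every total library. In these bulk cultures, fewer cells that express a gene and less of its RNA per cell cannot be told apart.

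**Figure D3:**
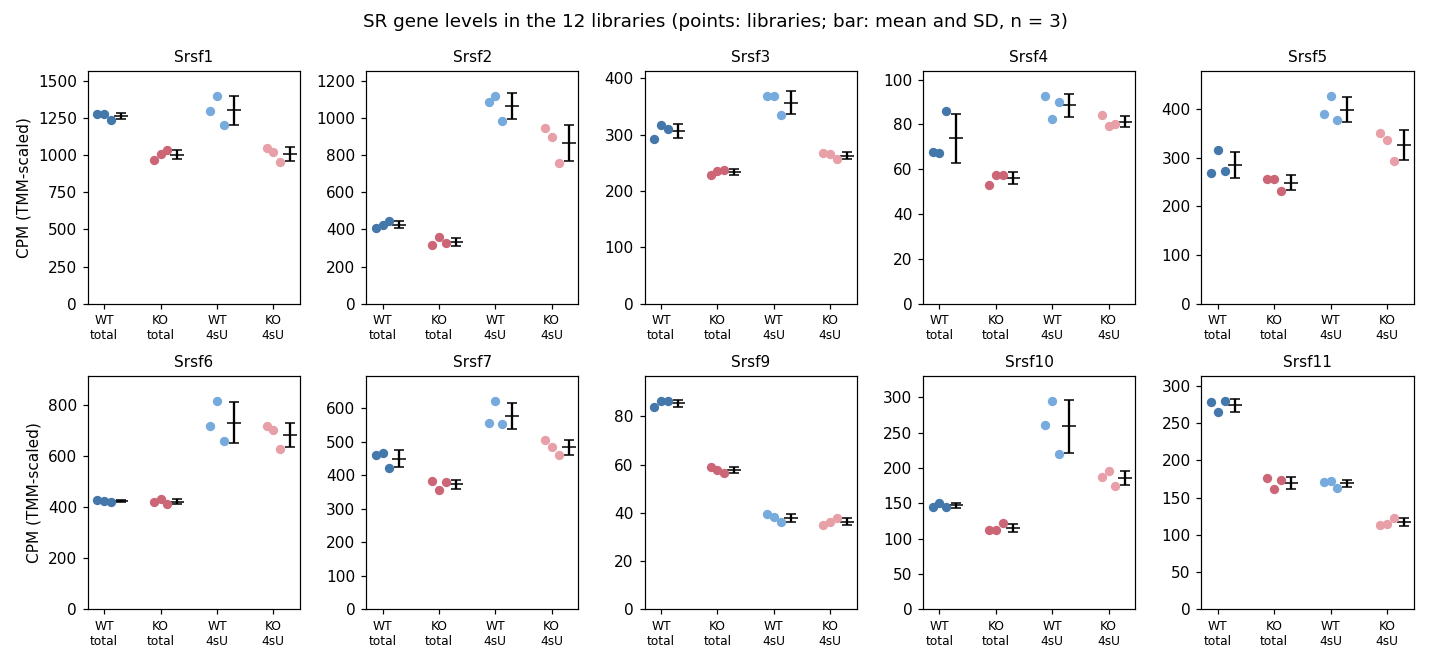
Level of each SR gene (y axis, TMM-scaled CPM from 0) in the 3 libraries of each group (points), with mean and SD (n = 3). In total RNA the Dgcr8 KO points lie below all wild-type points for every gene but Srsf6, where they overlap; over all tested genes this holds for 39.6%.

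Among the members with a pair of RNA recognition motifs, Srsf1 was the most abundant in CPM. Srsf1 (mm10 chr11:88047373-88053755, plus strand) encodes a shuttling splicing activator that also acts in NMD and translation. Its total RNA was 1276, 1276 and 1237 CPM in wild-type and 969, 1009 and 1032 CPM in Dgcr8 KO libraries. All KO libraries lay below all wild-type libraries, and the log2 change was -0.33 (SE 0.0448, adjusted p = 9.87e-08 in limma), a fall of 20.6%. Its closest paralog Srsf9 (chr5:115327177-115333080, plus strand) had 83.8, 86.3 and 86.4 CPM in wild-type and 59.1, 57.7 and 56.7 CPM in Dgcr8 KO. The groups were well apart, with a log2 change of -0.56 (SE 0.0639, adjusted p = 3.63e-09 in limma).

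Srsf4, Srsf5 and Srsf6 encode closely related proteins, and the first pair fell. Srsf4 (chr4:131873617-131901706, plus strand) had 67.8, 67.4 and 86.2 CPM in wild-type and 52.9, 57.4 and 57.6 CPM in Dgcr8 KO total libraries. Wild-type library 3 stood above the other two, and the log2 change was -0.40 (SE 0.0813, adjusted p = 6.93e-05 in limma). Srsf5 (chr12:80945504-80950507, plus strand) had 268, 316 and 272 CPM in wild-type and 257, 257 and 231 CPM in Dgcr8 KO. Its nearest libraries were close, and its log2 change of -0.20 (SE 0.0654, adjusted p = 0.00897 in limma) no longer passed without wild-type replicate 2 (-0.13, adjusted p = 0.0817), without Dgcr8 KO replicate 3 (-0.14, adjusted p = 0.0634) or in DESeq2 (-0.17, adjusted p = 0.0573). Srsf6 (chr2:162931528-162937121, plus strand) had 429, 423 and 419 CPM in wild-type and 420, 432 and 414 CPM in Dgcr8 KO. The groups overlapped, and the log2 difference was -0.0047 (SE 0.0581, adjusted p = 0.949 in limma), with a sign that turned under DESeq2, library-size, RLE and upper-quartile scaling and with either other filter. The difference between Srsf6 and the other members was not tested.

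Members with a lone RNA recognition motif also fell. Srsf2 (chr11:116849901-116853094, minus strand) had 408, 424 and 447 CPM in wild-type and 315, 359 and 326 CPM in Dgcr8 KO total libraries, a log2 change of -0.36 (SE 0.0657, adjusted p = 1.62e-05 in limma). Srsf3 (chr17:29032673-29043366, plus strand), the smallest SR protein and an adaptor for mRNA export, had 293, 317 and 310 CPM in wild-type and 229, 235 and 238 CPM in Dgcr8 KO. The KO libraries of both genes lay below every wild-type library, and for Srsf3 the log2 change was -0.39 (SE 0.051, adjusted p = 5.03e-08 in limma). Srsf7 (chr17:80200089-80207305, minus strand), also an export adaptor, carries a zinc knuckle beside its recognition motif. It had 461, 467 and 422 CPM in wild-type and 383, 357 and 379 CPM in Dgcr8 KO, a log2 change of -0.27 (SE 0.0525, adjusted p = 4.76e-05 in limma).

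Srsf10 and Srsf11 encode SR-like proteins. Srsf10 (chr4:135855747-135869908, plus strand) encodes a splicing regulator that represses splicing when dephosphorylated. It had 145, 151 and 145 CPM in wild-type and 112, 112 and 122 CPM in Dgcr8 KO total libraries, a log2 change of -0.35 (SE 0.0741, adjusted p = 0.000106 in limma). Srsf11 (chr3:158010473-158036639, minus strand) had the largest fall of the 10. Its total RNA was 278, 265 and 280 CPM in wild-type and 176, 161 and 173 CPM in Dgcr8 KO, a log2 change of -0.69 (SE 0.0524, adjusted p = 5.21e-13 in limma). It lay at percentile 15.5 of the changes of all tested genes.

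To ask which of these differences were already present in nascent RNA, the 4sU libraries were compared. In all, 7 members fell, by 16% for Srsf7 to 30.8% for Srsf11, while Srsf4, Srsf6 and Srsf9 did not pass the test. The 7 members lower in nascent RNA were also lower in total RNA. With limma 7 of 10 were lower and 0 higher, the same counts as at an unadjusted p under 0.05. Of all tested genes, not matched for abundance, 28% were lower and 28.3% higher at an adjusted p under 0.05. The edgeR quasi-likelihood test and DESeq2 each had 7 lower and 0 higher. All KO 4sU libraries lay below all wild-type 4sU libraries in 7 members and in 29.4% of all tested genes. The median log2 change was -0.29 over the members and -0.02 over all tested genes. No member reached a log2 change of 1, which 14.8% of tested genes passed.

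Srsf11 nascent RNA was 171, 172 and 163 CPM in wild-type and 113, 114 and 123 CPM in Dgcr8 KO, a log2 change of -0.53 (SE 0.0626, adjusted p = 1.47e-08 in limma). Srsf10 had 261, 295 and 220 CPM in wild-type and 187, 196 and 175 CPM in Dgcr8 KO, a log2 change of -0.46 (SE 0.0719, adjusted p = 2.17e-06 in limma). Wild-type libraries of Srsf10 were spread widely, but its KO libraries lay below all of them. Srsf3 had 369, 368 and 334 CPM in wild-type and 268, 265 and 256 CPM in Dgcr8 KO, a log2 change of -0.44 (SE 0.0534, adjusted p = 2.74e-08 in limma). Srsf1 had 1297, 1400 and 1206 CPM in wild-type and 1047, 1024 and 954 CPM in Dgcr8 KO, a log2 change of -0.36 (SE 0.0476, adjusted p = 1.04e-07 in limma).

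The other 3 members that fell had smaller changes. Srsf2 had 1084, 1120 and 984 CPM in wild-type and 946, 898 and 759 CPM in Dgcr8 KO 4sU libraries, a log2 change of -0.30 (SE 0.0595, adjusted p = 8.87e-05 in limma). Srsf5 had 390, 427 and 377 CPM in wild-type and 350, 336 and 293 CPM in Dgcr8 KO, a log2 change of -0.29 (SE 0.0663, adjusted p = 0.000468 in limma). For Srsf2, Srsf5 and Srsf7 the KO libraries lay below every wild-type library. In each of these genes library 3 was the lowest of its group in both genotypes. Without Dgcr8 KO replicate 3, the Srsf2 change was -0.18 (limma adjusted p = 0.00639), and without wild-type replicate 3 it was -0.36 (limma adjusted p = 8.51e-06). Srsf7 had 557, 622 and 552 CPM in wild-type and 505, 485 and 460 CPM in Dgcr8 KO, a log2 change of -0.25 (SE 0.0536, adjusted p = 0.000182 in limma).

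In the remaining 3 members the 4sU groups overlapped. Srsf9 had 39.4, 38.1 and 36.3 CPM in wild-type and 34.8, 36.2 and 37.7 CPM in Dgcr8 KO, a log2 difference of -0.07 (SE 0.0911, adjusted p = 0.557 in limma). Srsf4 had 92.8, 82.6 and 90 CPM in wild-type and 84.2, 79.5 and 80.1 CPM in Dgcr8 KO, a log2 difference of -0.13 (SE 0.0834, adjusted p = 0.201 in limma). Srsf6 had 717, 817 and 658 CPM in wild-type and 717, 705 and 630 CPM in Dgcr8 KO, a log2 difference of -0.09 (SE 0.0567, adjusted p = 0.183 in limma). Srsf6 passed the test under RLE scaling (-0.15, adjusted p = 0.0377), under upper-quartile scaling (-0.14, adjusted p = 0.041) and without wild-type replicate 3 (-0.17, adjusted p = 0.0121). Without wild-type replicate 2 the difference was -0.015 (adjusted p = 0.832) and without Dgcr8 KO replicate 3 it was -0.013 (adjusted p = 0.867).

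**Figure D4:**
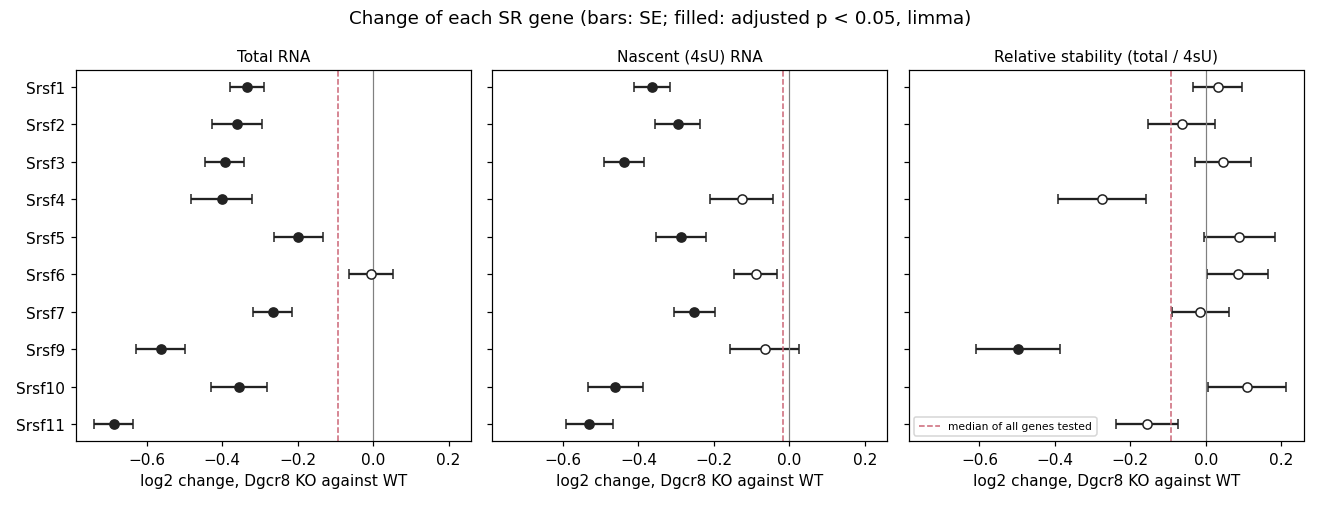
Log2 change in Dgcr8 KO against wild-type (x axis) with SE bars from limma for total RNA, nascent RNA and relative stability. Filled points have an adjusted p under 0.05 and the dashed line is the median of all tested genes. Srsf9 is the only filled point for stability, at -0.50, and Srsf6 is open in every panel.

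The change in relative stability was then tested as the interaction of genotype and library type. With limma, 1 of 10 members passed the test, lower, and 0 were higher, against 11.1% of all tested genes lower and 5.02% higher. The count of members was thus close to the share of all genes. At an unadjusted p under 0.05, for which no share of all genes was computed, 2 were lower and 0 higher. Both edgeR and DESeq2 also had 1 lower and 0 higher. In simulated counts the stability test found fewer changes of a given size than the test of total RNA did. A log2 change over 1 in either direction was passed by 1.76% of tested genes and by no member. The members' median was 0.01 and that of all tested genes -0.09. With RLE factors the median of all genes was near 0 (-0.00257) and that of the members 0.10, so the sign of a small stability change depended on the scaling.

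Srsf9 was the member that passed. Its log2 ratio of total to 4sU RNA was 1.09, 1.18 and 1.25 in wild-type and 0.77, 0.67 and 0.59 in Dgcr8 KO samples. All KO values lay below all wild-type values, and the fitted ratio fell by 0.50 (log2) (SE 0.111, adjusted p = 0.00171 in limma), at percentile 13.9 of the changes of all genes. The adjusted p ranged from 0.00104 to 0.0227 over 16 alternatives, and the change from -0.55 to -0.41. Srsf9 had 174 to 245 counts in each 4sU library, the fewest of the members. Its annotated NMD stop codon shown above is outside the counted exons, and 29.7% of its annotated exon bases were not counted.

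Srsf4 came next, with log2 ratios of -0.45, -0.29 and -0.06 in wild-type and -0.67, -0.47 and -0.48 in Dgcr8 KO. The groups were apart, and the fitted difference of -0.28 (SE 0.116) had a limma adjusted p of 0.11. With the 2 libraries of a sample as a block, the adjusted p was 0.0453. In DESeq2 the change was -0.19 (adjusted p = 0.444) and without wild-type replicate 3 it was -0.16 (adjusted p = 0.371 in limma), and the adjusted p ranged from 0.0453 to 0.444 over 16 alternatives. Srsf11 (-0.16, SE 0.0817, limma adjusted p = 0.21) did not pass. The other 7 members had log2 differences between -0.06 (Srsf2) and 0.11 (Srsf10), with SEs of 0.0654 to 0.103 and limma adjusted p-values of 0.54 to 0.932.

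To describe the 3′ UTRs, sites for the ESCC microRNAs, the family that dominates in ESCs and shares the seed AAGUGC, were sought. The mature sequences of 3 family members are shown with bases 2 to 8 in capitals, from RefSeq on build GRCm38.p6.

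mmu-miR-291a-3p (chr7:3218968-3218989): aAAGUGCUuccacuuugugugc
mmu-miR-294-3p (chr7:3220691-3220712): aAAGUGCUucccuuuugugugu
mmu-miR-302b-3p (chr3:127545275-127545297): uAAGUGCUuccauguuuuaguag

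All 3 carry AAGUGCU at bases 2 to 8, for which the complementary site is AGCACTT. The longest 3′ UTR of each member was searched on the transcript strand for the hexamer GCACTT, extended to AGCACTT or GCACTTA for a 7-base site. Such a hexamer was present in 34% of 11813 tested genes, and a 7-base site in 21.4%. Of the 10 members, Srsf1, Srsf2, Srsf7 and Srsf10 held the hexamer, and Srsf1 and Srsf10 held a longer site. The windows are shown in that order, with the matching bases in capitals, since Dgcr8 KO cells cannot process these microRNAs.

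Srsf1: taaccacgaaAGCACTTAaatctcttta
Srsf2: cctgacaactGCACTTccagtcaccc
Srsf7: cttatctgttGCACTTggttagcttg
Srsf7: cttatctgttGCACTTggttagcttt
Srsf10: aatattactcAGCACTTgctgtgccaa

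The Srsf1 site was of 8 bases, at base 3347 of a 3′ UTR of 4149 bases, and the Srsf10 site of 7 bases, at base 2049 of 2722. Srsf7 held 2 hexamers in near-identical surroundings. Stability differences of Srsf1 (0.03, limma adjusted p = 0.808) and Srsf10 (0.11, limma adjusted p = 0.54) did not pass the test. Among the 6 members with no hexamer, stability changes were -0.50 (Srsf9), -0.28 (Srsf4), -0.16 (Srsf11), 0.05 (Srsf3), 0.09 (Srsf5) and 0.08 (Srsf6). Only the Srsf9 change passed the test. Whether the sites go with stability changes was not tested. A match in these letters is a description and does not show binding.

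RefSeq holds 13 promoter sequences for the 10 members (GRCm38.p6, 250 bases before to 50 after the start), with 3 for Srsf4 and 2 for Srsf11. They were examined because 7 members fell together in nascent RNA, with motifs of which none contains another. Their GC content had a median of 69%, against 61% over 12520 promoters of tested genes, and they held a median of 38 CpG dinucleotides, against 21. GGGCGG, on either strand, was in 12 of the 13 and in 63.3% of promoters of tested genes (35.7% of all 32851 promoters). CCGGAAGT was in 4 of 13 against 8.12% (3.89% of all), although 2 of the 4 are promoters of Srsf4 that start 2 bases apart and overlap, beside those of Srsf5 and Srsf11, and CCAAT in 4 of 13 against 38.2% (37.4%). TATAAA was in 2 of 13, those of Srsf2 and Srsf3, against 6.98% (13.6%). No member promoter held AAGATGGCG, TGACGTCA or CACGTG, which were in 3.03%, 3.06% and 10.1% of promoters of tested genes (1.40%, 1.79% and 7.15% of all). The promoters of Srsf2 and Srsf3 are shown as the pair with TATAAA, with every match to the motifs above in capitals.

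Srsf2 (chr11:116853045-116853344, minus strand): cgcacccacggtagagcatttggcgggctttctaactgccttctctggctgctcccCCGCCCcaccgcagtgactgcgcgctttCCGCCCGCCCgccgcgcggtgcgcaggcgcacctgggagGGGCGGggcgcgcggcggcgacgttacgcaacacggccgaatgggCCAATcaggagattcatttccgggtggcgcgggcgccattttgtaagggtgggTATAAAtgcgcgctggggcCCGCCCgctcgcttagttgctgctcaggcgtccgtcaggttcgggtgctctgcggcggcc
Srsf3 (chr17:29032410-29032709, plus strand): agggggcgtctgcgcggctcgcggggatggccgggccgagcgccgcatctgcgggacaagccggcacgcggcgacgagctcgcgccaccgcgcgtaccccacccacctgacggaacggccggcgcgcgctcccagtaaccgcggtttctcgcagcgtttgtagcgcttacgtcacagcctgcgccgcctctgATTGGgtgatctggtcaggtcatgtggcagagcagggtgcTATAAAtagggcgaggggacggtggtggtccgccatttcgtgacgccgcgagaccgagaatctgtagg

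Both promoters hold TATAAA and CCAAT, the latter on the opposite strand in Srsf3. Both genes fell in nascent RNA, as did 5 members without TATAAA. The motif CCAAT was in the promoters of Srsf1, Srsf2, Srsf3 and Srsf10, which all fell in nascent RNA. The other members that fell, Srsf5, Srsf7 and Srsf11, did not hold it, and neither did Srsf4, Srsf6 and Srsf9, which did not pass. These are 4 of 13 member promoters, against 38.2% of promoters of tested genes. Whether any motif goes with the changes was not tested.

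The genes of the same machinery were described with lists. Over all tested genes, at a limma adjusted p under 0.05, 36.7% were lower and 27.2% higher in total RNA, and 28% lower and 28.3% higher in nascent RNA. For stability the shares were 11.1% lower and 5.02% higher. Genes for other SR-related proteins fell in large part: 17 of 24 tested were lower in total RNA, 0 higher, with a median log2 change of -0.24. At an unadjusted p under 0.05 limma had 17 lower and 1 higher, and the adjusted counts were 17 lower in edgeR and 15 in DESeq2, with 0 higher in both. In nascent RNA 16 were lower and 1 higher. Rnps1, which links splicing to the exon junction complex (EJC), fell by 0.79 (log2) in total RNA (SE 0.0955, adjusted p = 1.29e-08 in limma) and by 0.58 in nascent RNA (SE 0.0977, adjusted p = 6.7e-06 in limma). Rsrc2 fell in both (-0.59 and -0.55), Scaf4 fell in total RNA (-0.54), and Rsrc1 rose in nascent RNA (0.51, SE 0.116, limma adjusted p = 0.000426). No gene of this list passed for stability with limma, edgeR or DESeq2, and 3 were lower at an unadjusted p under 0.05 in limma and edgeR, with 1 higher in DESeq2. Srsf12 was not tested, with 3 to 37 counts per library.

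Genes for proteins that act on SR proteins were more often lower than higher. Of 11 tested genes for SR kinases, importers and a phosphatase, 6 were lower and 1 higher in total RNA, and 7 lower and 2 higher in nascent RNA. Ppp1ca, the catalytic subunit of protein phosphatase 1, fell by 0.65 (log2) in total RNA (SE 0.0464, adjusted p = 9.21e-14 in limma) and by 0.35 in nascent RNA (SE 0.0642, adjusted p = 2.31e-05 in limma). Tnpo3, the importer of SR proteins, fell by 0.60 in total RNA (SE 0.0503, adjusted p = 5.25e-12 in limma). The kinase gene Srpk2 rose in total (0.55, SE 0.0697, limma adjusted p = 3.63e-08) and nascent RNA (0.62, SE 0.0993, limma adjusted p = 3.67e-06), and Clk3 fell in nascent RNA (-0.24). For stability 3 were lower with limma, Tnpo3 (-0.43), Ppp1ca (-0.30) and Srpk1 (-0.30), and 1 with DESeq2.

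Genes for hnRNP proteins, which often oppose SR proteins at splice sites, also fell in large part. Of 23 tested, 18 were lower and 1 higher in total RNA, and 17 lower and 1 higher in nascent RNA, with median log2 changes of -0.29 and -0.32. In total RNA the largest falls were of Hnrnph2 (-0.60), Hnrnpll (-0.56) and Hnrnph3 (-0.53), and in nascent RNA of Hnrnpk (-0.59), Hnrnpu (-0.44) and Hnrnph3 (-0.43). For stability 1 was lower, Hnrnpa0 (-0.41), and 1 higher, Hnrnph1 (0.37). Each is 4.35% of the list, under the shares of all tested genes. Of 19 genes for NMD and EJC factors, 14 were lower and 2 higher in total RNA, and 11 lower and 2 higher in nascent RNA. The largest falls in total RNA were of the EJC core genes Magohb (-0.96, SE 0.282) and Rbm8a (-0.75, SE 0.074) and the NMD factor gene Upf3a (-0.75, SE 0.0732). In nascent RNA their changes were -1.25 (SE 0.43), -0.60 (SE 0.081) and -0.59 (SE 0.0938). Magohb was thus the least precisely measured of these genes. For stability 4 of these genes were lower with limma, among them Smg9 (-0.50), Upf2 (-0.33) and Upf1 (-0.29), while DESeq2 had 0 of them past the test and 3 lower at an unadjusted p under 0.05.

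Side by side, in total RNA 90% of SR genes, 70.8% of SR-related genes, 54.5% of the kinase and importer list, 78.3% of hnRNP genes and 73.7% of NMD and EJC genes were lower, against 36.7% of all tested genes. Differences between the lists were not tested, and the lists were not matched for abundance with each other or with all tested genes. ESC markers served as a comparison: 4 were lower and 3 higher in total RNA, 1 lower and 7 higher in nascent RNA and 5 lower for stability. With DESeq2, 4 of the 8 were higher in nascent RNA. Klf4 (-0.40) and Dppa5a (-0.28) fell and Sox2 rose (0.33) in total RNA, Tdgf1 (0.69), Sox2 (0.52) and Zfp42 (0.36) rose in nascent RNA, and Tdgf1 (-0.65), Klf4 (-0.55) and Esrrb (-0.45) fell for stability. The part of this shift in ESC markers in the SR gene values was not tested.

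**Figure D5:**
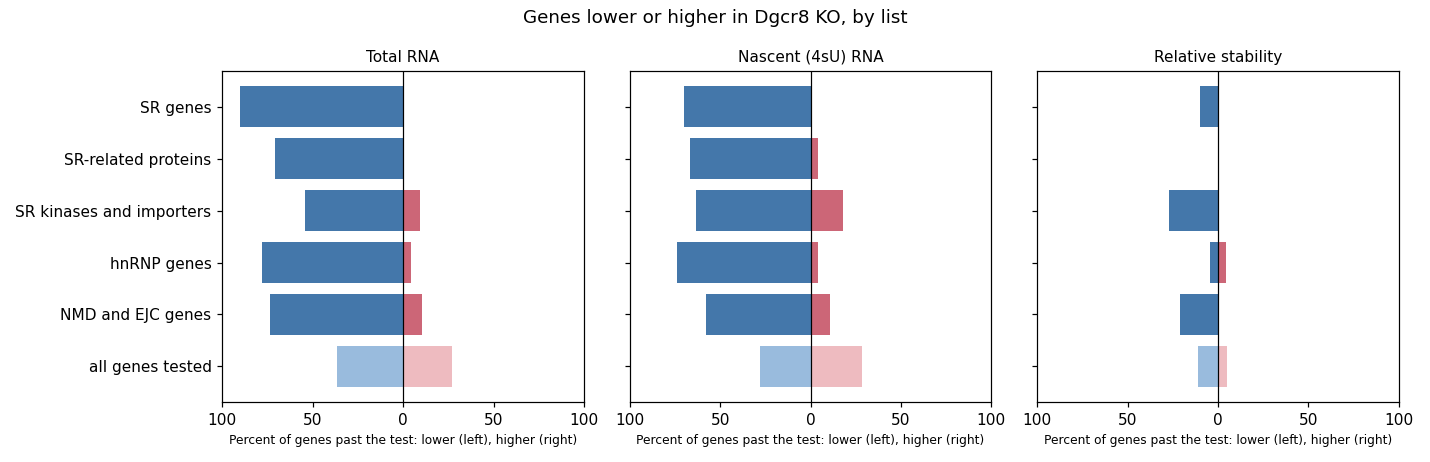
Percentage of tested genes in each list that were lower (left of 0) or higher (right of 0) in Dgcr8 KO at a limma adjusted p under 0.05, for total RNA, nascent RNA and relative stability. In total RNA 90% of the SR genes are lower, against 36.7% of all genes tested (pale bars), which were not matched for abundance.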

How the data were processed

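Total RNA and 4sU RNA from wild-type and Dgcr8 KO ESCs were analysed as 12 libraries, grouped by their titles. The authors deposited raw counts of reads for each gene. Per the labels, the file header and the study's methods, the authors trimmed reads with cutadapt 1.14, mapped them uniquely with STAR 2.5.3a to mm10, and counted them by strand with featureCounts 1.5.3 over the exons of the basic GENCODE M14 set, rRNA genes removed. Unique mapping loses reads shared with near-identical copies. GENCODE M21 places no NMD transcript of a member in its basic set, so such forms were probably counted only through shared exons. No column of values was left unused. Of 51559 rows, 92 were ERCC spike-ins with 1 count in all, left out, so scaling was relative.

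Genes with at least 3 CPM in at least 3 libraries were kept. Library sizes were corrected with TMM in edgeR 4.0.16, and limma 3.58.1 with voom weights (R 4.3.3) fitted the values, with genotype, library type and their interaction in 1 model, as in the study's design. P-values were adjusted by Benjamini-Hochberg over all 14033 genes, at a threshold of 0.05. CPM values are TMM-scaled, and the files give no molecular identifiers. Identifiers were matched to GENCODE M21 (51274 of 51559), whose longest 3′ UTR and transcript types were used.

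The members and lists were chosen with earlier results of these data known. The genes named were all members, Dgcr8, and up to 3 genes per list and contrast with the largest change among those that passed the test. Alternatives were edgeR, DESeq2 1.42.0, limma-trend, other scalings and filters, replicate and culture blocks, leaving out each replicate, and another gene length. Changes relative to the median of all genes were added after the data were seen. Scripts were tested on simulated counts. For total RNA, limma passed 42.1% of genes given a log2 change of 0.3 and 62.3% of those given 0.5. For stability it passed 9.21% and 33.8%. The genes given a change were few and drawn at any abundance, whereas most members are abundant and many genes passed in the real data. These percentages are therefore not the power for the members. A low count for stability does not show that stability was unchanged. Libraries of a group were not duplicates: chi-square divided by its degrees of freedom was 1.59 to 5.61 for the 12 pairs. Over all tested genes, samples with the same number showed little shared deviation between genotypes, with correlations of -0.0686 to 0.0694. These values do not exclude a shared batch. The summed 4sU level of the members was lowest in library 3 of both genotypes, at 4622 CPM in wild-type and 3769 CPM in Dgcr8 KO.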

Additional observations from a re-analysis of the deposited data

Results flagged for a closer look

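Srsf9 was the member whose genotype effect differed between total and nascent RNA by the interaction test. This is 1 of 10 members, close to the 11.1% of all tested genes that were lower for stability. Its log2 change was -0.56 in total and -0.07 in nascent RNA, a difference of -0.498 (SE 0.111, limma adjusted p = 0.00171), and the ratio was lower in all 3 Dgcr8 KO samples than in any wild-type sample. Groups of 3 were not examined for stray samples. The cause of the difference was not tested.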

How the results depend on the processing

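The counts of members that passed the test in total RNA (8 or 9 lower) and nascent RNA (7 or 8 lower) stayed within 1.5 times of the reported counts under every alternative run, and no member that fell turned direction. For stability 1 member passed under every alternative except the culture block, with 2. In the main fit 36.7% of all tested genes were lower in total RNA, 28% in nascent RNA and 11.1% for stability. These shares were not computed under the alternatives. The median change of the members in total RNA, -0.36, was -0.32 in DESeq2, -0.30 with library size only, -0.33 with RLE factors, -0.33 with no filter beyond 1 count and -0.26 against the all-gene median, and ranged from -0.38 to -0.32 over the leave-one-out fits. In nascent RNA the leave-one-out range was -0.34 to -0.20. The median stability change, 0.01, was 0.10 in DESeq2, 0.10 with RLE factors, 0.074 with upper-quartile factors and 0.10 against the all-gene median, and its sign turned over the leave-one-out fits, from -0.051 without Dgcr8 KO replicate 3 to 0.052 without Dgcr8 KO replicate 1. The cause of these shifts was not tested beyond the medians of all genes. The wild-type stability percentile of 39.1 was 27.8 when all 12 libraries had to reach 3 CPM and 57.2 unfiltered beyond 1 count, settings that change which genes are ranked.

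Signs turned only for differences that did not pass the test. Srsf6 in total RNA was 0.026 in DESeq2, 0.048 with library size only, 0.027 with RLE factors, 0.012 with upper-quartile factors, 0.015 when every library had to reach 3 CPM and 0.029 unfiltered, and ranged from -0.021 to 0.021 over leave-one-out fits. For stability, Srsf2 was 0.025 in DESeq2, 0.026 with RLE factors and 0.0021 with upper-quartile factors, and Srsf7 was 0.076, 0.075 and 0.052 there, 0.011 with library size only and 0.0019 with no filter. Over leave-one-out fits, stability changes ranged from -0.035 to 0.077 for Srsf1, -0.15 to 0.035 for Srsf2, -0.013 to 0.10 for Srsf3 and -0.067 to 0.024 for Srsf7.

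In the fit with a replicate block, 9, 7 and 1 members passed in total RNA, nascent RNA and stability, with median changes of -0.36, -0.29 and 0.01, and no call of a member changed. Between genotypes, correlations of same-numbered samples were under 0.1, which does not exclude a shared batch. Within a genotype, same-numbered 4sU and total libraries were taken as parts of a divided sample. Their correlations were 0.0103 to 0.0767. Per 4sU library, Srsf9 had 174 to 245 counts, the fewest of the members.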
